A study of Rattus norvegicus with 2 samples.

Results

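Aquaporins are membrane channels for water, and the vasopressin receptors are the hormone receptors that govern part of them in the kidney. The 8 genes described here are the channels Aqp1, Aqp2, Aqp3, Aqp4, Aqp8 and Aqp11 and the receptors Avpr1a and Avpr2. They were chosen by name, with earlier results of these data known, and found on the array through the RefSeq accession of each probe, and they are 8 of 13429 genes that could be named in this way. They were read by 11 probes on 47 spots of each array. Of the 8 genes, 7 were measured, meaning that their brightest probe stood well above background on both arrays, and Aqp8 was not.

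The arrays hold whole-kidney RNA of female rats of the PCK strain, which carries a mutated Pkhd1 gene and develops recessive polycystic kidney disease. The treated rats received pioglitazone, which activates PPAR-gamma, at 10 mg/kg in a daily gavage between 4 and 20 weeks of age. The controls were PCK females given vehicle with 0.5% DMSO over the same weeks, so both groups carry the strain's mutation, and +/+ rats, named in the treatment protocol, were not analysed here. RNA of several rats was pooled in each group and each pool went onto 1 array. One label text gives 5 females per pool and another 3 rats, and this could not be settled.

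Vasopressin is released when body water is short. It acts on the V2 receptor (Avpr2) of collecting duct principal cells, where cAMP and protein kinase A move Aqp2 into the apical membrane and, over a longer time, raise Aqp2 transcription. Water leaves these cells on the basolateral side through Aqp3 and Aqp4, while Aqp1 carries water in the proximal tubule, the thin descending limb and the vasa recta. In cystic kidneys the same V2 receptor and cAMP route is known as a drive of cyst growth, and mice without Aqp11 develop polycystic kidneys.

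Both arrays sat on 1 slide and carry the same scan time. Well above background were 73.1% of spots with pioglitazone and 71.8% with vehicle, and 0 spots were saturated. Signals were put on a log2 scale relative to the 75th percentile of their own array, and this took out a shift of 0.08 between the arrays. All differences are log2 differences, pioglitazone minus vehicle, and their median over 10479 measured genes was 0.03, with 56.2% of genes above 0. A single array stands for each group, so the differences have no replicate check and no p-value. The error given is the technical error of the scanner software, which is about 10% of the signal for bright spots (0.20 for a difference on the log2 scale) and holds no spread between rats. For a probe with several spots it is their mean error, and it does not fall with the number of spots. A difference is set against 2 times this error, and 5.61% of all measured genes lay beyond it.

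The 3 water channels of the collecting duct principal cell, Aqp2, Aqp3 and Aqp4, were lower with pioglitazone, with differences of -0.34, -0.29 and -0.32 on the log2 scale. The proximal channels Aqp1 and Aqp11 had positive differences, 0.09 and 0.33. The receptors were at 0.03 for Avpr1a and -0.08 for Avpr2. A difference of at least 0.32 on the log2 scale in size was the smaller of 2 cut-offs. Beyond it, Aqp2 alone of the 7 measured genes was lower, where 7.99% of all measured genes were, and Aqp11 alone was higher, where 5.01% were. Aqp4 lay just inside it. This split over all genes, 525 higher and 837 lower, depended on the scaling: it was 837 and 606 with median scaling and 1085 and 517 with no scaling, where Aqp2 no longer passed and Aqp11 did. At the larger cut-off, 1.5-fold (0.58), 0 of 7 were higher and 0 of 7 lower, against 0.84% and 1.87% of all measured genes. There the split was 88 higher and 196 lower, against 119 and 142 with median scaling and 142 and 125 with no scaling. No member's brightest probe differed by more than 2 technical errors. In pooled tissue RNA, fewer cells of a type and less RNA per cell cannot be told apart.

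**Figure D1:**
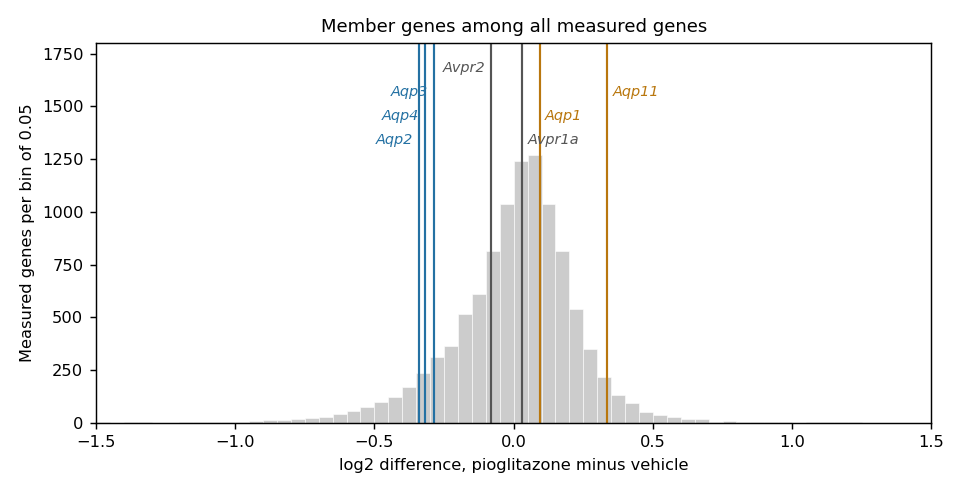
Histogram of the log2 difference, pioglitazone minus vehicle, over the measured genes (x axis, bins of 0.05; y axis, genes per bin; 14 genes lie outside the plotted range). Vertical lines mark the 7 measured member genes: Aqp2, Aqp3 and Aqp4 (blue) lie between -0.34 and -0.29, Aqp1 and Aqp11 (orange) at 0.09 and 0.33, and the receptors (grey) at -0.08 and 0.03.

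Aqp2 is the vasopressin-regulated channel of the apical membrane. Its probe was printed 10 times on each array. The spots read 12300 at the lowest, 12750 at the median and 13800 at the highest with pioglitazone, against 14600, 15300 and 16500 with vehicle. Every pioglitazone spot was below every vehicle spot. Over the 10 positions the difference averaged -0.34 ± 0.06 (SD over spots, which share 1 RNA pool per array). Across all measured genes 7.21% had a more negative difference than Aqp2.

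Replicate spots of a probe measure the array and not the rats. Of the 4 members printed 10 times, Aqp2 and a probe of Aqp4 had spots that did not overlap and were lower with pioglitazone, and Aqp1 had spots that did not overlap and were higher. Among all 203 probes printed 10 times with every spot well above background, 14.3% were separate in the lower direction and 14.8% in the higher, and all 10 positions were lower in 22.2%. Separate spots were thus common on these arrays.

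**Figure D2:**
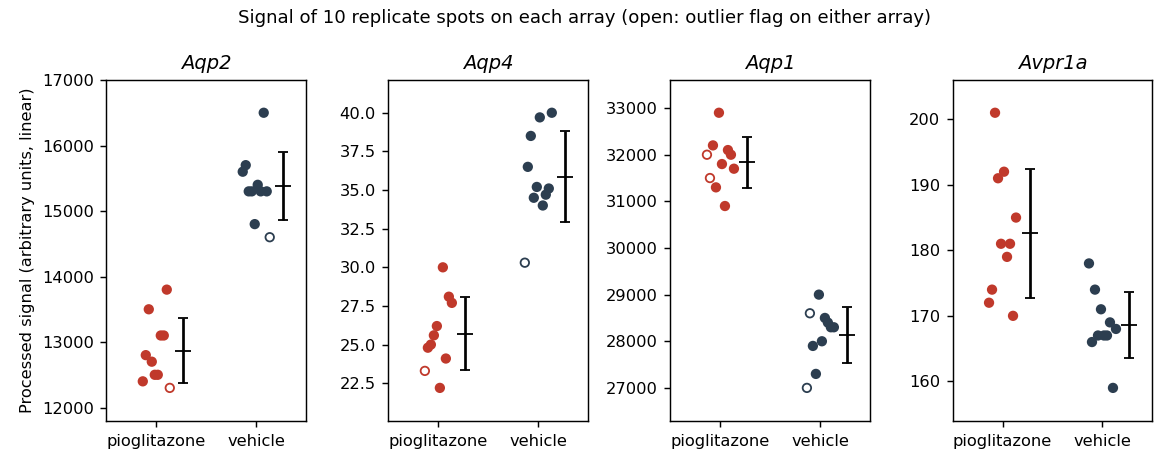
Processed signal (y axes, linear, arbitrary units, not starting at 0) of the 10 replicate spots of 4 member probes on the pioglitazone array (red, left) and the vehicle array (dark, right), before scaling between arrays. Black marks give mean and SD over spots, and open points are spots flagged as outliers on either array. Aqp2 and Aqp4 spots lie lower with pioglitazone without overlap, Aqp1 spots lie higher without overlap, and Avpr1a spots overlap.

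Aqp3 passes water and glycerol through the basolateral membrane of principal cells. Its single spot read 18300 with pioglitazone and 21100 with vehicle, a difference of -0.29 ± 0.20 (technical error). When the grid of the array is cut into 10 bands of rows, this spot lies in band 6 and the Avpr2 spot in band 7. In those bands 4.33% of spots well above background on both arrays differed by 1.5-fold or more, against 2.97% elsewhere. With 1 spot each, the part of this position in either value was not tested.

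Few genes as bright as Aqp2 and Aqp3 had differences of this size in the lower direction. Differences on these arrays narrow as signals rise, and 702 measured genes had signals above 10000 on both arrays, a class set after the values were seen. Their median difference was 0.06 with an SD over genes of 0.13. In that class 0.712% of genes, 5 in all, were lower beyond 0.32, and 2.56% were higher beyond it. The 5 were S100a6, Spp1, Aqp2, Clu and Hsp90aa1, at -0.56, -0.35, -0.34, -0.33 and -0.32. Aqp2 ranked 3 and Aqp3 ranked 9 of 702 from the most negative. Spp1 encodes osteopontin, Clu clusterin, S100a6 a calcium-binding protein and Hsp90aa1 a heat shock protein.

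Aqp4 is the second basolateral channel of principal cells, most of all in the inner medulla, and in the brain it is the channel of astrocytes. It was read by 4 probes under 2 transcript accessions. The brightest, A_44_P561166, read 2190 with pioglitazone and 2580 with vehicle, a difference of -0.32 ± 0.20, within 2 technical errors of 0. The dimmer probes showed larger differences. A_44_P819726 read 141 with pioglitazone and 232 with vehicle (-0.80 ± 0.20). A_44_P934428 read 24.6 with pioglitazone and 46.2 with vehicle (-0.99 ± 0.23). A_44_P448461, printed 10 times, read 22.2 at the lowest, 25.3 at the median and 30.0 at the highest with pioglitazone, against 30.3, 35.15 and 40.0 with vehicle. All 4 probes had the same direction, and the 3 dimmer ones lay beyond 2 technical errors.

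The Aqp4 probes disagreed on size. A_44_P819726 and A_44_P934428 were lower by 1.5-fold or more, as were 1.95% of all measured probes of named genes, while 0 member probes were higher by that much, as were 0.827% of all. Among probes of like mean signal that share was 1.6% from 50 to 500, the class of A_44_P819726, and 5.53% below 50, the class of A_44_P934428. The mean over the 4 probes was -0.67. With the normexp background model on median spot signals and an offset of 50, which by its construction shrinks ratios of dim signals, A_44_P934428 was at -0.46, A_44_P448461 at -0.28, A_44_P561166 at -0.27 and A_44_P819726 at -0.59. All 4 kept their direction there, and which of these changes in processing made the dim probes' differences smaller was not tested. Markers of astrocytes and stomach, where Aqp4 is also made, were near background: Gfap and Atp4a were not well above it on either array, and Atp4b read 20.7 with pioglitazone and 18.4 with vehicle.

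**Figure D3:**
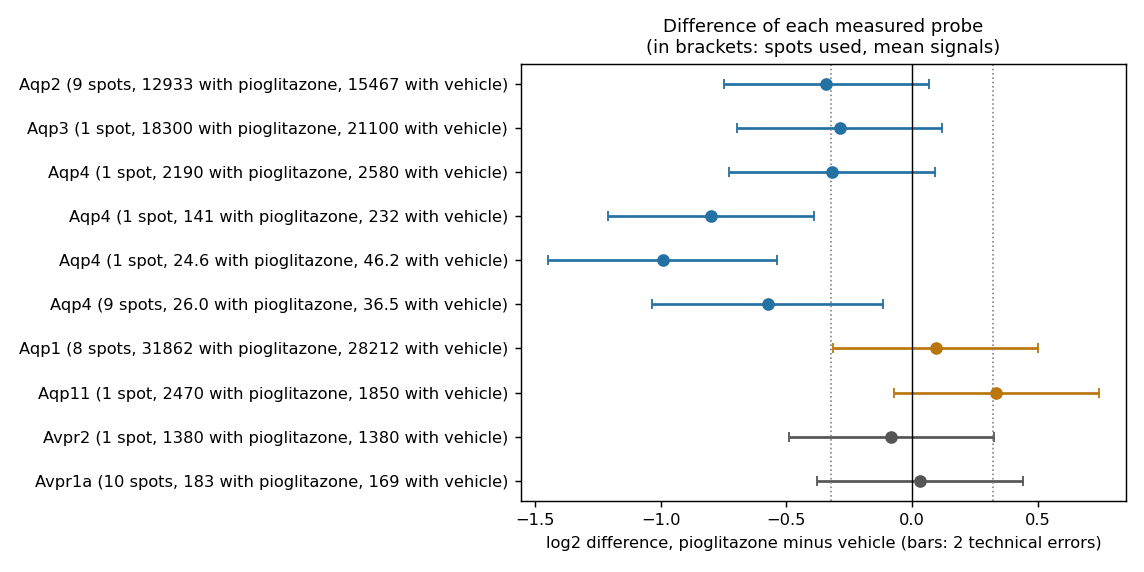
Log2 difference, pioglitazone minus vehicle (x axis), of each measured probe of the member genes (rows), with bars of 2 technical errors and dotted lines at 0.32 on either side of 0. In brackets are the unflagged spots used and their mean signal on each array. The 6 probes of Aqp2, Aqp3 and Aqp4 lie left of 0, and only the bars of the 3 dimmer Aqp4 probes do not reach 0. The technical error is a mean over the spots used and does not fall with their number.

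The proximal channels had positive differences, small for Aqp1 and larger for Aqp11. Aqp1 is the constitutive water channel of the proximal tubule, and its probe was printed 10 times. The spots read 30900 at the lowest, 31900 at the median and 32900 at the highest with pioglitazone, against 27000, 28300 and 29000 with vehicle. All 10 positions were higher with pioglitazone before and after scaling, yet the difference was small at 0.10 ± 0.04 (SD over spots), or 0.09 ± 0.20 without 2 flagged positions (technical error). Of all measured genes, 33.8% had a more positive difference. Under quantile scaling it shrank to 0.01.

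Aqp11 is an intracellular channel of the proximal tubule. Its single spot read 2470 with pioglitazone and 1850 with vehicle, a difference of 0.33 ± 0.20, or 1.26-fold, and 4.49% of measured genes had a more positive one. Aqp8, a channel known from liver, pancreas and colon, read 3.38 with pioglitazone and 4.38 with vehicle, not well above background on either array, so no difference is given.

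A ratio of 2 genes within an array is free of any factor applied to that whole array, and so of most scalings. Relative to Aqp1, Aqp2 was lower by 0.43 with pioglitazone (Aqp2 minus Aqp1, -0.43 ± 0.29 technical error), Aqp3 was at -0.38 and Aqp4 at -0.41. Relative to Aqp11 the values were -0.68 for Aqp2, -0.62 for Aqp3 and -0.65 for Aqp4, each beyond 2 technical errors (0.58), while the values relative to Aqp1 were within them. Aqp11 is the member with the highest difference, so these last values set the extremes against each other and are a description. Aqp2 minus Aqp3 was -0.05, and Aqp4's brightest probe lay between them, while its dimmer probes reached -0.99. The technical error holds no spread between rats, so these ratios describe the 2 pools.

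Windows around the gene starts of Aqp2, Aqp3 and Aqp11 are shown as those of the apical and a basolateral channel of the principal cell, whose brightest probes were lower with pioglitazone, and of the channel with the highest difference. Each runs from 250 bases before to 50 bases after the gene start in RefSeq, build GRCr8, on the gene's own strand. Aqp2 is at chr7:132590036-132590335 on the plus strand, Aqp3 at chr5:61040634-61040933 on the minus strand and Aqp11 at chr1:161467869-161468168 on the minus strand. Capitals mark the half-site of the cAMP response element (TGACG on either strand, so also CGTCA), the letters GATA on either strand (also TATC) and TATAA on the gene's strand.
Aqp2: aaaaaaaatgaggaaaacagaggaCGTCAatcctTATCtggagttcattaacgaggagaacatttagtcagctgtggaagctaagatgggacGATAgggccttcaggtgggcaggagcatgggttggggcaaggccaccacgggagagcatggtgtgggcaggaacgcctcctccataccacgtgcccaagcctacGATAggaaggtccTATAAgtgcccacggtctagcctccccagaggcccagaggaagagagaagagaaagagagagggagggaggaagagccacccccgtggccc
Aqp3: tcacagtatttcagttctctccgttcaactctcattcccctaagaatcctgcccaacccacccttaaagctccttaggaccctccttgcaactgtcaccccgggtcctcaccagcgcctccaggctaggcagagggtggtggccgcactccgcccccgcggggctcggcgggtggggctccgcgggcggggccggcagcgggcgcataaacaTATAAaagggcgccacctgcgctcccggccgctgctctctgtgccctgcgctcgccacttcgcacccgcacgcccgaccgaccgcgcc
Aqp11: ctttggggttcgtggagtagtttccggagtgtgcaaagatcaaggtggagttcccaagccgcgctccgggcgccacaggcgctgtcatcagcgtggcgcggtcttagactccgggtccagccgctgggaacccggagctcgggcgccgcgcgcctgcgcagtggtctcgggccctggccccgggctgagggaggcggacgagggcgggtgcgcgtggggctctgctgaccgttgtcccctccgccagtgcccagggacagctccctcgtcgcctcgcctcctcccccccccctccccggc
The Aqp2 window holds 1 cAMP half-site, 3 GATA matches and TATAA starting 41 bases before the gene start. The Aqp3 window holds TATAA starting 38 bases before it, and the Aqp11 window holds none of the marked letters. In the windows not printed the matches did not follow the direction of the difference. Aqp1, with a positive difference, holds TATAA. Of the receptors, with differences near 0, Avpr2 holds 3 GATA matches and Avpr1a a half-site and TATAA. Aqp4 holds TATAA in 1 window and GATA in the other, and Aqp8 holds none. Among all 33469 promoter windows of the same length, 21.2% hold the half-site, 60.5% GATA and 18.4% TATAA, and no marked matches overlapped each other. All 8 member genes matched a window, and Aqp4, whose difference lay between those of Aqp2 and Aqp3, matched 2, which are not printed. A match here is a run of letters and not a binding site.

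The vasopressin receptors had differences near 0. Avpr2, the V2 receptor that couples to cAMP in principal cells and the thick ascending limb, read 1380 on both arrays from a single spot. Scaling turned this into -0.08 ± 0.20, and with no scaling it was 0. Avpr1a, the V1a receptor that couples to phospholipase C in vessels and parts of the distal nephron, was printed 10 times. The spots read 170 at the lowest, 181 at the median and 201 at the highest with pioglitazone, against 159, 167.5 and 178 with vehicle. They overlapped, 7 of 10 positions were higher after scaling, and the difference of 0.03 ± 0.08 (SD over spots) turned to -0.02 with normexp. Aqp2 minus Avpr2 was -0.26 ± 0.29 (technical error), within 2 technical errors of 0.

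The genes that surround these members were read from lists written with earlier results of these data known, and they are given as counts beside all measured genes. The ligand genes are made in the hypothalamus. Avp, the vasopressin gene, read 30.2 to 37.1 with pioglitazone and 29.6 to 89.3 with vehicle over 10 spots, with medians of 34.0 and 32.3, and its difference without 1 flagged spot was -0.0018 ± 0.23. Oxt, the oxytocin gene, read 12.7 to 40.8 with pioglitazone (median 15.2), against 33.6 to 49.8 with vehicle (median 40.9). Its difference was -1.45 ± 0.27 without 1 flagged spot, and all 10 positions were lower. These are dim signals in the class where 5.53% of probes were lower by 1.5-fold. Oxtr was not well above background on either array.

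Among 18 measured genes of V2 receptor signalling, 7 had positive and 11 negative differences around a median of -0.02, which turned positive under 2 of 11 alternatives. Pde1a, a calcium-dependent phosphodiesterase, was at -0.83 (54.0 with pioglitazone and 90.7 with vehicle), the only one beyond 2 technical errors. Prkar2b, a regulatory subunit of protein kinase A, was at -0.33, Arrb1 at 0.27 and the cAMP sensor Rapgef3 at 0.25. Gnas, which encodes the stimulatory G protein, was at -0.01 and the adenylyl cyclase Adcy6 at 0.01, both named after their values were seen, and a dimmer Gnas probe printed 10 times averaged -0.25 ± 0.16 (SD over spots). The 10 measured genes of V1a signalling had a median of 0.03, with the calcium channel Itpr1 at 0.23 (a second Itpr1 probe, printed 10 times, was at -0.18), Plcb4 at 0.19, Rgs4 at -0.18 and Itpr2 at 0.17.

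Genes that move Aqp2 vesicles differed little. Of 21 measured, 12 were positive and 9 negative with a median of 0.01, a sign that turned under 3 of 11 alternatives. Mal, an apical sorting protein, was at -0.45 (1950 with pioglitazone and 2520 with vehicle) and lay beyond 2 technical errors. Anxa2 was at -0.28, Stx3, an apical SNARE, at -0.23 and Snap23 at 0.19.

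Among genes of urea transport and of the response to high tonicity, 3 were beyond 2 technical errors, all lower with pioglitazone, and 6 were within them. Of the 9 measured, 8 had negative differences around a median of -0.29, against a median of 0.03 and 56.2% positive over all measured genes. Beyond 0.32, 3 were lower, where 7.99% of all measured genes were. Akr1b1, the aldose reductase that makes sorbitol, read 376 with pioglitazone and 556 with vehicle (-0.65 ± 0.20). The taurine transporter Slc6a6 read 198 with pioglitazone and 273 with vehicle (-0.55 ± 0.20). Slc14a2, the UT-A urea transporter of the inner medullary collecting duct, read 2570 with pioglitazone and 3360 with vehicle (-0.47 ± 0.20). These are the 3 beyond 2 technical errors, and Aqp2 minus Slc14a2 was 0.13 ± 0.29 within the arrays. Nfat5, the tonicity-responsive transcription factor, was at -0.31. The list median stayed between -0.31 and -0.20 over 11 alternatives.

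Of 10 measured transcription factors of the collecting duct, 8 were negative around a median of -0.14. Over all measured genes 56.2% were positive, a share not matched for brightness. Ehf was at -0.53 and Gata3 at -0.43, both beyond 2 technical errors, as were 5.61% of all measured genes in either direction. Nfat5, at -0.31, is also counted in the tonicity list, and Creb1, at -0.02, in the list of V2 receptor signalling. Pparg, the receptor that pioglitazone binds, was at -0.30 ± 0.23 (technical error), within 2 technical errors of 0. Its signals were dim, 32.3 with pioglitazone and 37.5 with vehicle. All 10 of its positions were lower, as in 22.2% of the 203 probes printed 10 times. With only genes above the median signal the list median was -0.02.

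Sodium and potassium transport genes of the same principal cells had mostly positive differences, and 0 of 11 were beyond 2 technical errors. Of the 11 measured, 10 were positive around a median of 0.15, where 56.2% of all measured genes were positive. That share is not matched for brightness. The median difference over measured probes was -0.03 below a mean signal of 50 and 0.06 at 5000 or more, and most genes of this list are bright. Beyond 0.32, 1 was higher and 0 lower, against 5.01% and 7.99% of all measured genes. The subunits of the epithelial sodium channel were each printed 10 times, and all 10 positions were higher in each: Scnn1a averaged 0.29 ± 0.08, Scnn1b 0.12 ± 0.07 and Scnn1g 0.19 ± 0.07 (SD over spots). All 10 positions were higher in 29.1% of the 203 probes printed 10 times. The potassium channels Kcnj16 and Kcnj1 were at 0.32 and 0.24, and the kinase Sgk1 was the exception at -0.32. Relative to Scnn1a, Scnn1b and Scnn1g, Aqp2 was at -0.61, -0.46 and -0.53 within the arrays, each with a technical error of 0.29, so only the first exceeded 2 errors. Against other genes of the principal cell, Aqp2 was at -0.53 for Hsd11b2, -0.48 for Tfcp2l1 and 0.09 for Gata3, all within 2 errors.

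**Figure D4:**
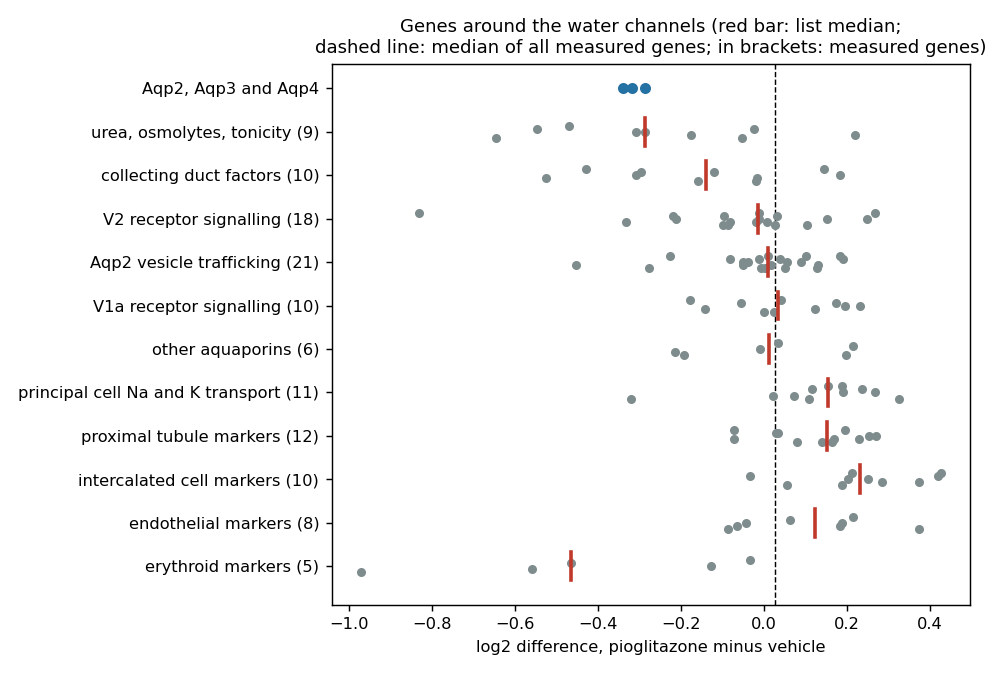
Log2 difference, pioglitazone minus vehicle (x axis), of the measured genes of each list (rows, number of genes in brackets; grey points are genes, red bars list medians, the dashed line the median of all measured genes). Aqp2, Aqp3 and Aqp4 are the blue points of the top row. The tonicity list sits at a median of -0.29 and the principal cell sodium and potassium list at 0.15.

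Markers of cell types differed beside these values, and their part in the differences was not tested. Over all measured genes 56.2% were positive, a share not matched for brightness, and the counts of markers stand beside it. Of 5 measured principal cell markers, 4 were positive around a median of 0.14 (Hsd11b2 and Scnn1g at 0.19, Tfcp2l1 at 0.14, Scnn1b at 0.12) and Gata3 was negative. All 5 were already counted in the sodium and potassium list or among the transcription factors, so they are no separate reading. The summed signal of the 5 before scaling was 80536 with pioglitazone and 67499 with vehicle, a ratio of 1.13 after scaling. Most of it came from Hsd11b2, at 55300 with pioglitazone and 45800 with vehicle. Elf5 was not well above background on either array. Of 12 proximal tubule markers, 10 were positive, around a median of 0.15, including Ggt1 at 0.27, Slc22a8 at 0.25, Cubn at 0.23 and Miox at 0.19. Aqp1 at 0.09 lay below that median, and Aqp11 at 0.33 lay above the highest of the 12. The summed signal of the 12 before scaling was 341930 with pioglitazone and 295417 with vehicle, a ratio of 1.09 after scaling. The largest part came from Slc13a3, at 99100 with pioglitazone and 85000 with vehicle. For intercalated cells the median was 0.23 and 9 of 10 genes were positive, with Hepacam2 at 0.43, Foxi1 at 0.42, Atp6v1b1 at 0.37 and Rhcg at 0.28.

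Aqp1 is also abundant in red cells and vessels. All 5 measured erythroid markers were negative, around a median of -0.47. Ahsp was at -0.97, Alas2 at -0.56, Hbb at -0.47, Epb42 at -0.13 and Slc4a1, which intercalated cells also make, at -0.03. Rhag was well above background on the pioglitazone array alone, at 7.91 with pioglitazone and 1.59 with vehicle, and is not among the 5, and with no filter on dim probes the list median was -0.30. The summed signal of the 5 before scaling was 6788 with pioglitazone and 7689 with vehicle, a ratio of 0.83 after scaling. The largest part came from Slc4a1, at 3940 with pioglitazone and 3810 with vehicle. Of 8 measured endothelial markers, 5 were positive and 3 negative around a median of 0.12, which fell to 0.0009 with normexp. Cdh5 was at 0.37 (33.2 with pioglitazone and 24.2 with vehicle), Kdr at 0.21, Tie1 at 0.19 and Ehd3 at 0.18. In the list for the thin limb and vasa recta, 4 of 5 were negative around a median of -0.11, with Plvap at -0.23, Bst1 at -0.18, Cryab at -0.11, Slc14a1 at -0.03 and Cldn10 at 0.02. The 7 thick ascending limb markers had a median of 0.09, with Bsnd at 0.27, Cldn19 at -0.26 and Kcnj1 at 0.24. The 5 smooth muscle and mesangial markers had a median of -0.0018, with Cnn1 at -0.46 ± 0.42 (technical error), Tagln at -0.12, Myh11 at 0.07 and Pdgfrb at the median. Cnn1 read 7.26 with pioglitazone and 9.41 with vehicle, close to background. The sign of the thick ascending limb median and of the smooth muscle and mesangial median turned under at least 1 alternative. Of the hepatocyte markers, which were checked because liver makes Aqp8 and Avpr1a, Alb read 19.2 with pioglitazone and 24.8 with vehicle (-0.45). Ttr was at 0.53 (45.2 with pioglitazone and 29.6 with vehicle), Fgb at -0.37, Apoa1 at 0.22 and Serpina1 at -0.19, the list median. Signals of Alb, Ttr, Apoa1 and Serpina1 were all below 50, close to background.

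Of 6 other aquaporin genes, all measured, 3 were positive and 3 negative, and 0 differed beyond 0.32. Aqp7, a water and glycerol channel of the proximal straight tubule and of fat, read 2970 with pioglitazone and 2420 with vehicle (0.21 ± 0.20). Aqp12a read 1250 with pioglitazone and 1030 with vehicle (0.20 ± 0.20). Aqp5 was at -0.21, Aqp9 at 0.03 and Aqp6, an intracellular channel of intercalated cells, at -0.01. Mip was at -0.19 from signals close to background (10 with pioglitazone and 10.8 with vehicle). Aqp2, Aqp5 and Aqp6 are direct neighbours on chromosome 7, and their differences were -0.34, -0.21 and -0.01.

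The direction of Aqp2, Aqp3, Aqp4, Aqp1 and Aqp11 was the same under every alternative in which they could be computed, 11 for each but Aqp3, for which there were 10. Several of these alternatives could not change a value by construction. Dropping the filter on dim probes, or using genes above the median signal alone, leaves a bright measured gene as it was. A mean over probes cannot move a gene with a single probe, and keeping flagged spots cannot move a gene without any. For Aqp3 and Aqp11, each read from a single unflagged spot, none of these could move the value. Aqp2 stayed between -0.40 and -0.26, Aqp3 between -0.35 and -0.21, Aqp11 between 0.30 and 0.42 and Aqp1 between 0.01 and 0.18. Avpr1a ranged between -0.02 and 0.11 and Avpr2 between -0.11 and 0, so neither receptor has a settled direction.

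**Figure D5:**
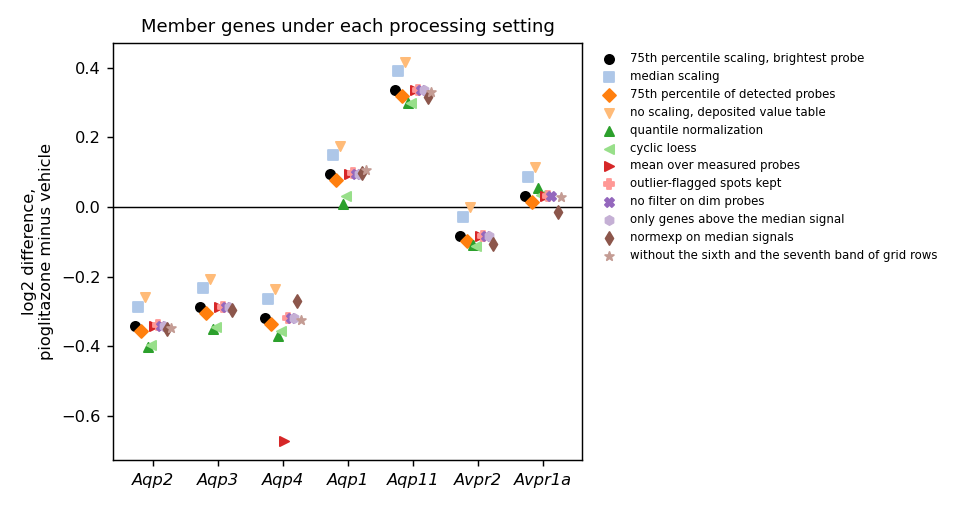
Log2 difference, pioglitazone minus vehicle (y axis), of the 7 measured member genes (x axis) under the reported setting (black) and 11 alternatives (coloured markers). Aqp2, Aqp3 and Aqp4 stay below 0 and Aqp1 and Aqp11 above 0 in all that were computed, and the mean over probes moves Aqp4 to -0.67. Some alternatives cannot change the value of a given gene by construction.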

How the data were processed

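RNA of female PCK rat kidneys was labelled with Cy3 and hybridised to 1-colour Agilent arrays, 1 pool and 1 array per group. The deposited spot values are linear intensity. They come from Agilent Feature Extraction 10.7.3.1 (per the submitters' processing notes and the headers), which took off background and spatial trends array by array and did not scale between arrays, and the deposited value table equals these intensity values at all 45018 features. The number of arrays limits the precision.

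Of 43379 spots that were no controls, 149 with an outlier flag on either array were left out. Log2 signals were scaled by each array's 75th percentile and averaged per probe. Probes were named through RefSeq accessions, without versions, in a gene table of GRCr8 (16950 of 41012 probes), and a gene took its brightest probe. A probe was well above background when at least a share of 0.5 of its spots were. No test was run, because a group is a single array, and the scripts were tested on simulated data. Members and gene lists were chosen with earlier results of these data known. The text names all members and, per list, the 4 genes with the largest difference in size (every measured gene in lists of at most 6), apart from genes said to be named after their values were seen and spot counts of marker genes; 2 marker genes that the rule names are not reported here. Other scalings and filters are given in the closing section. Tools were Python 3.11.15, pandas 2.3.3, R 4.3.3 and limma 3.58.1.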

Additional observations from a re-analysis of the deposited data

How the results depend on the processing

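Alternatives were quantile, median scaling, no scaling, detected probes alone for the 75th percentile, cyclic loess, a mean over probes, flagged spots kept, no filter on dim probes and genes above the median signal alone. The normexp model on median signals and the removal of 2 bands of grid rows, which drops Aqp3 and Avpr2, were chosen after seeing the data. A version of normexp that needs mean spot signals had been planned and was not run, since median signals were at hand and mean signals were not. No paired analysis was possible because there is a single array for a group. For a value with no test the technical error served as the spread. A mean over probes moved Aqp4 to -0.67. The count of members beyond 0.32 shifted, as several lie near that cut-off: against 1 higher there were 0 with detected probes, quantile, loess and normexp, and against 1 lower there were 0 with median scaling and no scaling, 2 with detected probes, a mean over probes, no filter and without the bands, and 3 with quantile and loess. With no filter the added lower member was Aqp8, which was not well above background on either array. At 1.5-fold 1 member was lower with a mean over probes. Over all genes, 525 were higher beyond 0.32, against 837 with median scaling, 1085 unscaled, 1143 unfiltered, 119 above the median signal and, with normexp, 150, while 837 were lower, against 517 unscaled, 1382 unfiltered, 186 above the median signal and, with normexp, 391. At 1.5-fold, 88 were higher, against 142 unscaled, 488 unfiltered, 5 above the median signal and, with normexp, 10, while 196 were lower, against 125, 577, 30 and 48. The median of the vasopressin ligand list, which rests on Avp and Oxt, was -0.73, against -0.0018 without a filter and -0.28 with normexp. The cause was not tested except where a filter alters which genes count. The rank of Aqp2 and Aqp3 among bright genes rests on a class chosen after seeing the data. Signals below 50 lie close to background and limit the values read there, among them those of Oxt, Pparg, Cdh5 and Cnn1. The same holds for the Aqp4 probes A_44_P448461 and A_44_P934428, but not for its brightest probe.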
